A study of Mus musculus with 6 samples.

Results

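Mitochondrial ribosomal proteins are made from nuclear genes and build the ribosome inside mitochondria. The family was taken as every gene on the array whose symbol is Mrpl or Mrps followed by a number and at most 1 letter. This gave 76 of 24010 named genes, 48 of the large subunit (Mrpl) and 28 of the small subunit (Mrps). RefSeq lists 78 mouse genes with such symbols, and Mrps18c and Mrpl27 were not analysed here. The rule reads only symbols, but the family was selected on earlier results, the I-BET151 and JQ1 changes of these same arrays. Its levels and changes are therefore given as a description, and no statement is supported by them.

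The arrays came from dorsal pancreatic buds of mouse embryos at E11.5, kept in culture for 24 h. All groups carried the culture itself, and each sample was a pool of 10 buds on 1 Affymetrix array. The control (CTRL) received 0.1% DMSO, the solvent. The treated groups received 500 nM I-BET151 or 100 nM JQ1, inhibitors of the BET bromodomain proteins, which bind acetylated histones and help to start transcription. There were 2 arrays in each of 3 groups. The labels give no strain or genotype, and do not say whether the pools came from separate litters or days, and the p-values therefore reflect only how far these pools differed. The doses of the inhibitors differed, as given by the labels.

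The mitochondrial ribosome translates the few messenger RNAs that mitochondrial DNA encodes, all of them for membrane subunits of the respiratory chain and ATP synthase. Its RNAs are made in the organelle, whereas its proteins are encoded in the nucleus, made in the cytosol and imported. The large subunit forms the peptide bond and holds the exit tunnel, and the small subunit reads the messenger RNA. Members numbered up to L36 or S21 are named after a bacterial counterpart, and most higher numbers mark proteins added in mitochondria. Structures of the mammalian ribosome place the products of Mrps30 and Mrps18a in the large subunit despite their names. Mrps36 encodes a protein since assigned to the α-ketoglutarate dehydrogenase complex.

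Promoter sequence is the nuclear control region these genes might share. RefSeq's table for GRCm38.p6 held 73 promoter entries for 67 of the 76 members. It had none for Mrpl4, Mrpl13, Mrpl15, Mrpl19, Mrpl38, Mrpl54, Mrps28, Mrps34 and Mrps35. The 250 bases before the annotated start are shown for 3 of the members with the most negative mean change over both inhibitors (Mrpl35, Mrpl30, Mrpl53) and for 2 of those with the most positive (Mrps25, Mrps26). Each runs 5′ to 3′ on the gene's own strand, and capitals mark the motif matches described after them.
Mrpl35: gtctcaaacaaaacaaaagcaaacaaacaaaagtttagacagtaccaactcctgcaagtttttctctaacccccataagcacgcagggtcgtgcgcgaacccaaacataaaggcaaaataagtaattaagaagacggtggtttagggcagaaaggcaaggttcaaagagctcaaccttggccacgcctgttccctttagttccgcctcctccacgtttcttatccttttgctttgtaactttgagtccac
Mrpl30: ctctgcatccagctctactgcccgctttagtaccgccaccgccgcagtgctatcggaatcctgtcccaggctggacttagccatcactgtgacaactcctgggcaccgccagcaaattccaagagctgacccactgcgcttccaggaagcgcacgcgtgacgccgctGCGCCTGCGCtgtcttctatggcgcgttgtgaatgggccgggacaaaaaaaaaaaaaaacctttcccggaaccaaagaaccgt
Mrpl53: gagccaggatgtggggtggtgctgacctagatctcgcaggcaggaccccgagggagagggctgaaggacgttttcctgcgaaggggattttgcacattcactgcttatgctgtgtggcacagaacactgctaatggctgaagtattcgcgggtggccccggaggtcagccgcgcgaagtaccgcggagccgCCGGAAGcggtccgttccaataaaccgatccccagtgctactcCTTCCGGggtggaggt
Mrps25: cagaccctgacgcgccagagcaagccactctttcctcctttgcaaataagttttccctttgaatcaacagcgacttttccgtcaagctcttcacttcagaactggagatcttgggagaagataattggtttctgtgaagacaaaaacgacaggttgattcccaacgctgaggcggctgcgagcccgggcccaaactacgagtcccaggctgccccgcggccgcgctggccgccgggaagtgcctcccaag
Mrps26: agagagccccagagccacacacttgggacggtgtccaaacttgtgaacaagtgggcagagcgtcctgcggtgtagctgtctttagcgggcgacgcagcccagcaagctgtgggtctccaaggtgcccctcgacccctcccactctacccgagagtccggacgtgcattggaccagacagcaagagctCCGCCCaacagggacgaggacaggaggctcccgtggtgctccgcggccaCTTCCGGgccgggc
The Mrpl35 stretch is chr6:71823785-71824034 on the minus strand and held no match. The Mrpl30 stretch is chr1:37890227-37890476 on the plus strand, with an NRF1 motif whose first base lies 83 bases before the start. For Mrpl53 the stretch is chr6:83108858-83109107 on the plus strand, with ETS motifs 59 and 16 bases before the start. The Mrps25 stretch, chr6:92184024-92184273 on the minus strand, held no match. For Mrps26 it is chr2:130563507-130563756 on the plus strand, with an SP1 motif 63 bases and an ETS motif 14 bases before the start. Among the stretches shown, Mrpl35 (below control) and Mrps25 (above it) carried no match, and ETS letters stood before Mrpl53 and Mrps26. Not shown are Mrps18b and Mrps36, with lower mean changes than Mrpl53, and Mrpl49, with a higher one than Mrps26. All of these carried SP1 letters. The stretches are therefore examples and do not decide whether motif letters go with direction.

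The following 5 motifs were searched on both strands, each allowed to overlap the others. CCGGAAG stands for ETS factors such as GABP, GCGC, any 2 bases and GCGC again for NRF1, CACGTG for the E-box bound by MYC, AAGATGGC for YY1 and GGGCGG for SP1. The ETS letters stood in 16 of 73 member entries (21.9%) and in 6.91% of all 32851 entries. The NRF1 letters stood in 10 (13.7%) against 4.98%, and the YY1 letters in 4 (5.48%) against 1.56%. The E-box was present in 6 (8.22%) against 6.02%, and SP1 in 37 (50.7%) against 32.7%. Some members have several entries: the 6 E-box entries belonged to 4 of 67 members, Mrpl2 being counted more than once. With the 50 bases after the start included, ETS letters were in 24 entries (32.9%, all entries 8.86%) and YY1 letters in 12 (16.4%, all entries 2.75%). Median GC content was 58.3% in member entries and 52.7% in all, and its part in these shares was not tested. A match describes letters and is not evidence of binding.

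The large-subunit entries held the NRF1 letters in 9 of 47 (19.1%) and the E-box in 6 (12.8%, from 4 members). Small-subunit entries held the NRF1 letters in 1 of 26 (3.85%), the E-box in 0 and SP1 in 17 (65.4%, large 42.6%). The 16 members with ETS letters had a median log2 change of -0.12 under I-BET151, and the 51 without had -0.12. The 10 members with NRF1 letters had medians of -0.19 under I-BET151 and -0.13 under JQ1, against -0.11 and -0.05 for the 57 without. Under I-BET151 the 4 members with YY1 letters had -0.17, and the 4 with the E-box -0.15. In each case the 63 without had -0.11. The 33 with SP1 letters had -0.12 and the 34 without -0.11. These medians were not tested.

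Members mostly read as bright as the median gene or brighter in the cultured buds. Between 71 and 73 of the 76 lay at or above the median gene of each array, whose intensity was 54 to 57. The median member read 254 to 316, the lowest 16 to 26 and the highest 1081 to 1215, by array. No member fell below the 25th percentile of a control array. Probes differ in brightness, so these intensities do not give the abundance of one gene's RNA relative to another's.

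Under either inhibitor the family as a whole lay slightly below control in its median, and 1 gene passed the test. The median log2 change of the 76 members was -0.12 under I-BET151 (a median of -7.96%) and -0.06 under JQ1 (-3.95%). Over all named genes the medians were 0.00 and 0.02, and over genes at or above the median gene they were 0.01 and 0.01. The I-BET151 median stayed below 0 in both subunits under every scaling tried. The JQ1 medians turned to 0.00 (large, 0.003 before rounding) and 0.02 (small) when each array was centred on its own median. I-BET151 and JQ1 share their control arrays, so their changes are not independent.

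Of 76 members, 62 had a log2 change below 0 under I-BET151 (81.6%, all genes 46%), and 53 had one under JQ1 (69.7%, all genes 44.1%). The sizes were small: 63 and 62 members differed by under 0.25, which 79% and 76% of all genes also did. Members ranged from -0.48 to 0.24 under I-BET151 and from -0.60 to 0.35 under JQ1. None exceeded 0.5 in size under I-BET151 and 2 did under JQ1, against 4.9% and 6.46% of all genes. The 95% interval of all 76 members lay within 1 log2 unit either way in both contrasts, as it did for 95.8% and 94.9% of all genes. The median standard error of a member's change was 0.0924.

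**Figure D1:**
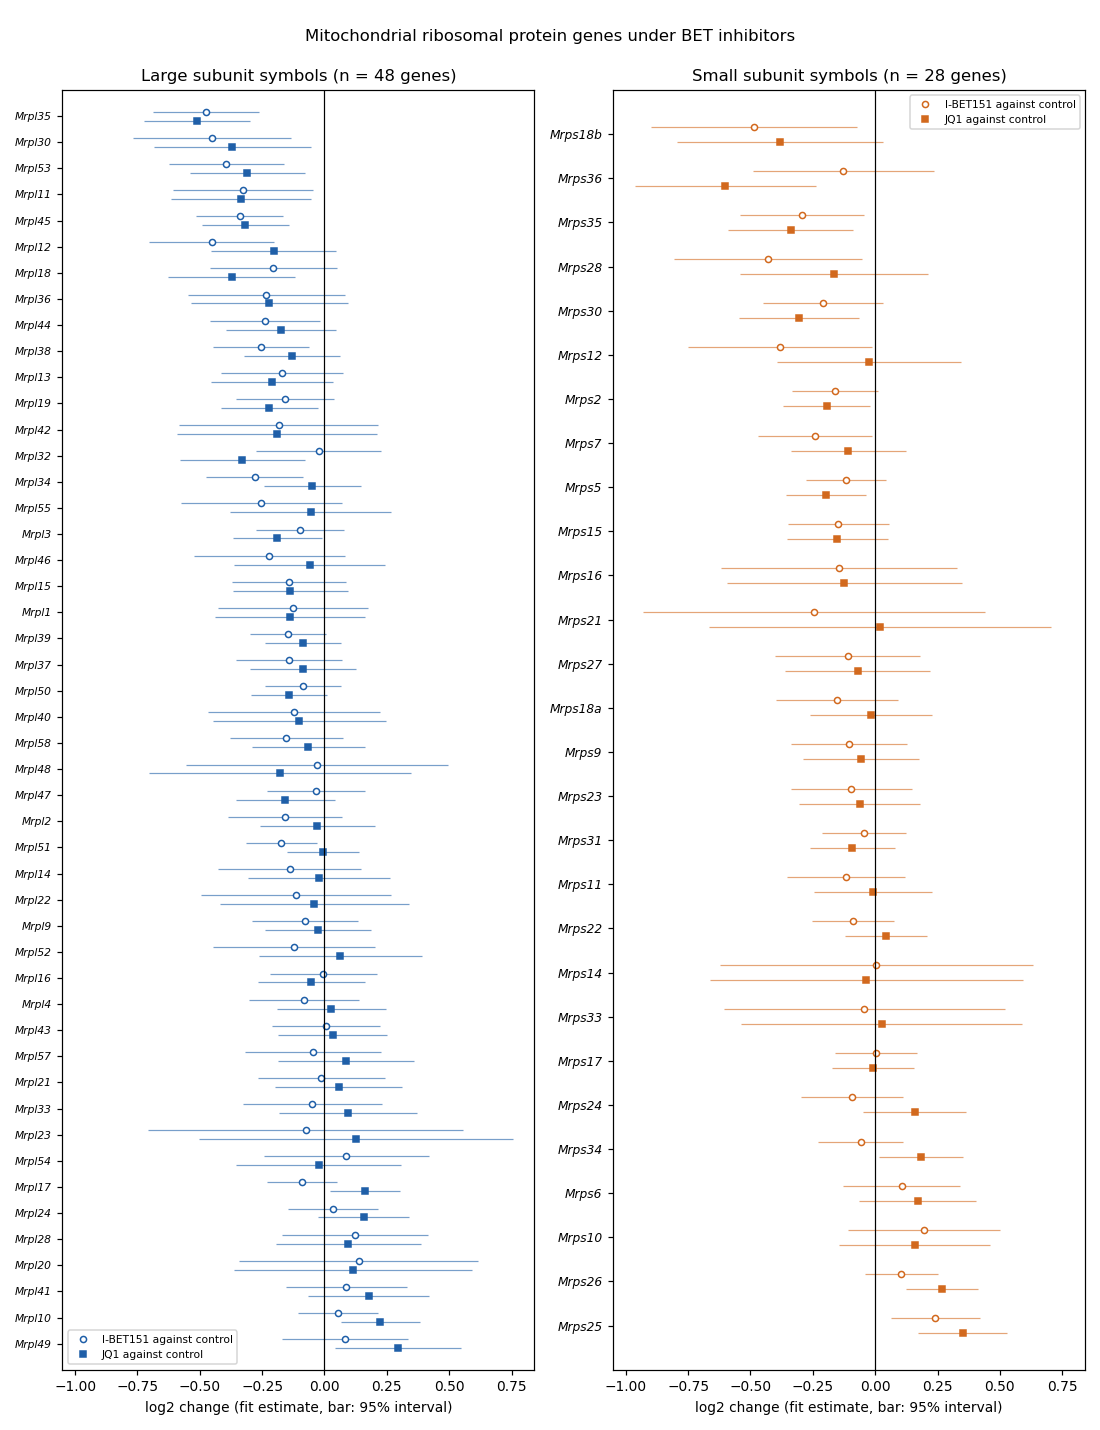
Log2 change of each member against control with its 95% interval (horizontal axis), for I-BET151 (open circles) and JQ1 (filled squares), large-subunit genes on the left and small-subunit genes on the right, ordered by the mean change. Most points lie left of 0, from -0.48 to 0.24 under I-BET151 and from -0.60 to 0.35 under JQ1, with wide intervals for genes such as Mrps14 and Mrps33.

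**Figure D2:**
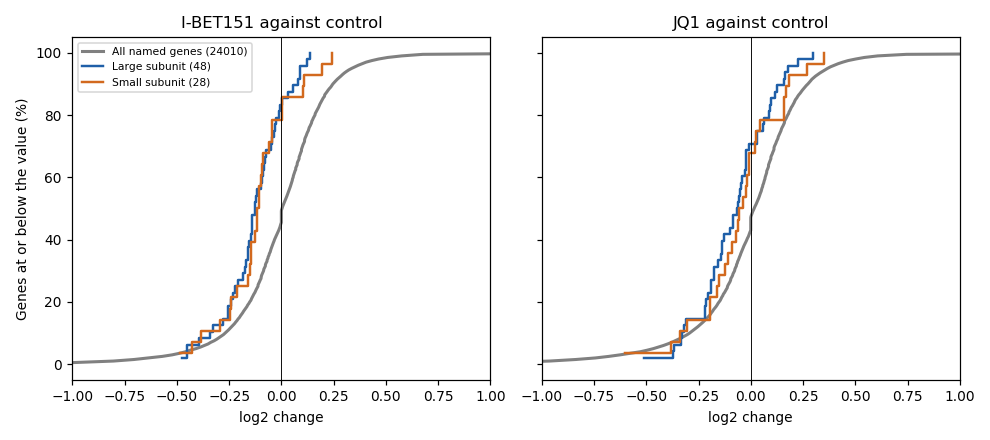
Cumulative share of genes (vertical axis, percent) at or below each log2 change (horizontal axis), for I-BET151 on the left and JQ1 on the right. The large (48 genes) and small (28 genes) subunit curves run left of the curve of all 24010 named genes around 0, further under I-BET151 (medians -0.12 and -0.11) than under JQ1 (-0.06 and -0.05), and lie close to each other.

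The large-subunit median was the lower of the subunit medians in each contrast with control, by a small amount, but not under I-BET151 without its first array (-0.07 against -0.08). Under I-BET151 the median log2 change was -0.12 for the 48 large-subunit genes and -0.11 for the 28 small-subunit genes, with 40 and 22 of them below 0. Under JQ1 it was -0.06 and -0.05, with 34 and 19 below 0, both turning to 0 or above with centred arrays. For the mean of both inhibitors it was -0.11 and -0.08. The large median minus the small one was -0.01, -0.02 and -0.03 in those contrasts. On single arrays this gap between medians was -0.0049 and 0.0049 in control, -0.02 and 0.01 with I-BET151, and -0.03 and -0.02 with JQ1, with a pooled SD of 0.01 over the 3 pairs of replicates. Taking Mrps30 and Mrps18a as large-subunit genes gave -0.13 and -0.11 under I-BET151. No test of the difference between subunits was made.

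With both subunits pooled, genes with and without a bacterial counterpart in their number also gave like medians. The 42 members with a bacterial number had -0.12 under I-BET151 and -0.04 under JQ1. The 34 with a higher number had -0.12 and -0.07. Within subunits the order differed under I-BET151. Large-subunit genes had -0.11 with a bacterial number and -0.14 with a higher one, and small-subunit genes had -0.14 and -0.09. Under JQ1 these medians were -0.05 and -0.09 (large), and -0.03 and -0.06 (small). These differences were not tested.

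The shift was uneven between replicate arrays. Relative to the mean of both controls, the median large-subunit gene stood at 0.03 and -0.03 on the control arrays. It stood at -0.17 and -0.07 on the I-BET151 arrays and at -0.08 on both JQ1 arrays. The small subunit gave 0.04 and -0.04, then -0.15 and -0.08, then -0.05 and -0.06. All 4 treated arrays thus lay below both controls in each subunit, and the first I-BET151 array lay lowest. The median of all genes stood between 0.00 and 0.01 on every array.

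Members also shared a direction between replicates of a group. The first control array exceeded the second in 56 of 76 members, against 42.9% of all genes. The first I-BET151 array was below the second in 60 of 76, against 46.9% of all genes. The first JQ1 array was below the second in 44, against 42.8% of all genes. Neither the control nor the I-BET151 lean was particular to the members. The I-BET151 lean held in 45 of 64 cytosolic ribosomal, 47 of 74 nuclear oxidative phosphorylation and 20 of 27 mitochondrial ribosome assembly genes, and in 5 of 10 mitochondrial biogenesis regulators. The first control array was below the second in 18 of 76 members and 17 of 74 oxidative phosphorylation genes, against 45.8% of all genes. It was below in 1 of the 10 regulators, 25 of the 64 cytosolic ribosomal and 11 of the 27 assembly genes. Without the first I-BET151 array the I-BET151 median was -0.07 for the large and -0.08 for the small subunit. Without the first control array the small-subunit median was -0.06 under I-BET151 and -0.0001 under JQ1, and without the second it was -0.16 and -0.09. Leaving out the second control array took the large-subunit median under JQ1 from -0.06 to -0.13. Which pools these arrays share in handling is not given by the labels, and its part in the shift was not tested.

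**Figure D3:**
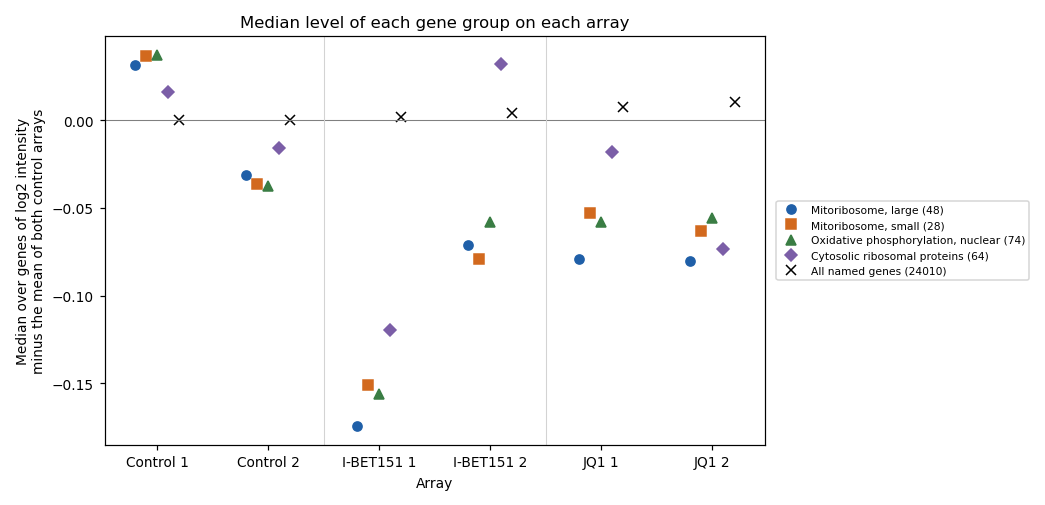
Median log2 intensity of each gene group on each array, relative to the mean of both control arrays (vertical axis, log2 units), with the 6 arrays along the horizontal axis. Large and small mitochondrial ribosomal genes and nuclear oxidative phosphorylation genes lie near each other on every array and lowest on I-BET151 1, while the median of all named genes stays between 0.00 and 0.01.

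Mrpl35, the counterpart of a small bacterial large-subunit protein, was the only member called, and it fell. It read 351 and 353 in control, 240 and 267 with I-BET151, and 237 and 257 with JQ1. The treated arrays did not overlap the controls, and the means were 352 ± 1.41, 253.5 ± 19.1 and 247 ± 14.1 (SD, n = 2). Under JQ1 it fell by 0.51 ± 0.08 (SE) on the log2 scale, 1.43-fold, with limma's adjusted p = 0.0485. For the mean of both inhibitors it fell by 0.49 ± 0.07, 1.41-fold, with limma's adjusted p = 0.0358. Leaving out any array (limma's adjusted p 0.0871 to 0.189) or blocking on replicate number (limma's adjusted p 0.0746) ended this call too. Under I-BET151 the log2 change was -0.48 ± 0.08 and limma's adjusted p 0.0842. The JQ1 call was lost when any of the 6 arrays was left out (limma's adjusted p 0.0906 to 0.201), with replicate number as a block (limma's adjusted p 0.0910) and with only the groups compared (limma's adjusted p 0.0906), and no gene of the 24010 passed in these fits. The log2 change itself stayed between -0.57 and -0.45 under JQ1 in 20 alternatives, several of which could not move it. Filters on dim genes, variance settings, the replicate block, fitting only the compared groups and leaving out an I-BET151 array keep the same estimate.

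Counts of called members are given beside the same share of all genes. In limma's fit with Benjamini-Hochberg adjustment, 0 of 76 members passed an adjusted p of 0.05 under I-BET151, where 1.13% of all genes did. At an unadjusted p under 0.05 there were 16 members, or 21.1% against 18.9% of all genes, and 5 members (6.58%) passed when eBayes used a trend and robust variances, as did 7.52% of all genes. Of the 16, 15 were lower and 1 higher, against 10% and 8.84% of all genes. Under JQ1 1 of 76 passed, against 3.8% of all genes, or 2.67% in the lower direction. At an unadjusted p under 0.05 there were 20 (all genes 21.6%), 14 lower and 6 higher, against 11.2% and 10.4%. For the mean of both inhibitors 1 of 76 passed, against 4.92% of all genes, or 3.33% in the lower direction, and 19 had an unadjusted p under 0.05 (all genes 22.7%). Between JQ1 and I-BET151 0 of 76 members and 0% of all genes passed in limma's fit. There 9 members had an unadjusted p under 0.05 (all genes 6.71%), and the count was 0 with a trend and robust variances too.

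The count depended on which other genes were tested. With only genes at or above the median gene, 72 members remained and 5 (6.94%) were called under I-BET151, 6 (8.33%) under JQ1 and 10 (13.9%) for the mean of both. Of all 12005 genes then tested, 11.8%, 19.7% and 22.3% were called, each above the members' share. A trend and robust variances gave 10 of 76 (13.2%) under JQ1 and 10 for the mean of both, against 10.9% and 12.5% of all genes. For the mean of both inhibitors, each of these 2 settings called Mrpl11, Mrpl12, Mrpl18, Mrpl30, Mrpl35, Mrpl45, Mrpl53, Mrps18b and Mrps35 lower and Mrps25 higher. Mrpl45, whose protein sits at the exit tunnel facing the inner membrane, Mrpl18 and Mrps35 are named after their values were seen.

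Arrays that did not overlap the controls were counted for each gene. Under I-BET151 both arrays lay below both controls for 35 of 76 members (46.1%, 24 large and 11 small), against 20.7% of all genes. Both lay above for 4, against 21.5%. Under JQ1 both lay below for 35 (25 large and 10 small), against 21%, and above for 12, against 23.9%. All 4 treated arrays lay below both controls for 26 members (18 large and 8 small), against 14.9% of all genes. They lay above for 3 members, Mrpl10, Mrps25 and Mrps26, against 14.4%.

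Among large-subunit genes the lowest mean changes after Mrpl35 belonged to Mrpl30, Mrpl53 and Mrpl11. Mrpl30, a counterpart of bacterial L30, read 404 and 371 in control, 260 and 308 with I-BET151, and 321 and 280 with JQ1. Mrpl53, a protein found only in mitochondrial ribosomes, read 487 and 492, then 346 and 401, then 387 and 403. Mrpl11, which lies at the base of the stalk where translation factors dock, read 206 and 196, then 146 and 176, then 164 and 155. In each of the 3 genes every treated array lay below every control array. None was called: the mean changes were -0.41, -0.35 and -0.33, with limma's adjusted p 0.105, 0.0777 and 0.129.

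Other stalk genes did not all go the same way. Mrpl12, the stalk protein that contacts elongation factors and has also been reported to bind the mitochondrial RNA polymerase, read 506 and 485 in control, 348 and 377 with I-BET151, and 463 and 400 with JQ1. Its change was -0.45 under I-BET151 (limma's adjusted p 0.116) and -0.20 under JQ1 (limma's adjusted p 0.317). Mrpl10, which anchors the stalk, read 525 and 502, then 537 and 529, then 585 and 615. All 4 treated arrays of Mrpl10 were above both controls, with changes of 0.05 under I-BET151 and 0.22 under JQ1 (limma's adjusted p 0.691 and 0.128). Neither gene passed the test in either contrast.

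Mrpl3, Mrpl44 and Mrpl58 were described whatever they did. Mrpl3, in which variants cause a mitochondrial cardiomyopathy, read 427 and 426, then 396 and 401, then 392 and 357. Mrpl44, which has a ribonuclease III fold, read 134 and 141, then 118 and 115, then 114 and 130. Mrpl58, a peptidyl-tRNA hydrolase that rescues stalled ribosomes, read 1192 and 1155, then 981 and 1135, then 1129 and 1115. Treated arrays lay below both controls in all 3 genes. The mean changes were -0.14, -0.21 and -0.11, with limma's adjusted p 0.248, 0.195 and 0.470.

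Mrpl32 and Mrpl49 lay on opposite sides of control under JQ1. Mrpl32, which is cut to its mature form by the inner-membrane m-AAA protease, read 156 and 146 in control, 147 and 150 with I-BET151, and 130 and 111 with JQ1. Its JQ1 arrays alone were below the controls, with a change of -0.33 (limma's adjusted p 0.146). Mrpl49, without a bacterial counterpart, read 814 and 715, then 766 and 851, then 961 and 913. Its JQ1 arrays were both above the controls, with a change of 0.30 (limma's adjusted p 0.180).

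Among small-subunit genes Mrps18b had the lowest mean change. Mrps18b, a relative of bacterial S18, read 864 and 844 in control, 523 and 712 with I-BET151, and 629 and 682 with JQ1. Its treated arrays were all below the controls, the I-BET151 arrays lay far apart, and the mean change of -0.43 had limma's adjusted p 0.159. Its relative Mrps18a, a large-subunit protein by structure, read 316 and 275, then 256 and 275, then 283 and 300. Those arrays overlapped, and the mean change was -0.08 (limma's adjusted p 0.610). Mrps30, the other large-subunit protein under a small-subunit symbol, read 338 and 311, then 291 and 270, then 278 and 247, all treated arrays being below control (mean change -0.26, limma's adjusted p 0.152).

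Mrps25 and Mrps26 lay above control on every treated array. Mrps25, a mitochondria-specific small-subunit protein, read 368 and 355 in control, 409 and 446 with I-BET151, and 457 and 465 with JQ1. The changes were 0.24 under I-BET151 and 0.35 ± 0.07 (SE) under JQ1, with limma's adjusted p 0.174 and 0.0697. Mrps26 read 337 and 337, then 355 and 370, then 404 and 407. Its changes were 0.10 and 0.27, with limma's adjusted p 0.403 and 0.0782. In alternative fits Mrps25 was called higher under JQ1 with centred arrays, with a pseudocount of 16, without genes below the median gene and with a trend and robust variances (limma's adjusted p 0.0465, 0.0396, 0.0215 and 0.0115). Mrps26 was called higher under JQ1 in the last 3 of these (limma's adjusted p 0.0369, 0.0372 and 0.0394). Mrps6 and Mrps10, counterparts of bacterial S6 and S10, had mean changes of 0.14 and 0.18, with limma's adjusted p 0.376 and 0.381 and 1 treated group each above both controls, JQ1 for Mrps6 and I-BET151 for Mrps10.

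**Figure D4:**
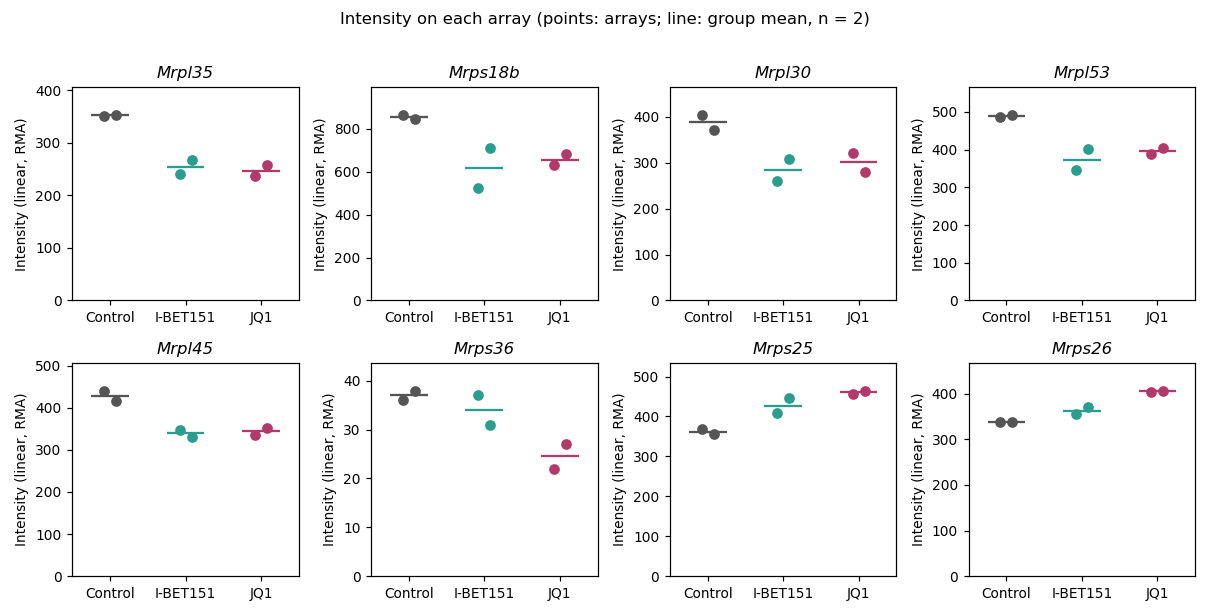
Linear intensity (vertical axis, from 0) on each array for 8 members, with points for arrays and lines for group means (n = 2), in control, I-BET151 and JQ1. Treated arrays lie below both controls for Mrpl35, Mrps18b, Mrpl30, Mrpl53 and Mrpl45 and above them for Mrps25 and Mrps26, while Mrps36 is lower on both JQ1 arrays only.

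Mrps12, a protein of the decoding centre, read 311 and 348, then 230 and 277, then 296 and 354, so that only the I-BET151 arrays were below control (log2 change -0.38, 95% interval -0.75 to -0.01, limma's adjusted p 0.254). Mrps2 read 486 and 482, then 444 and 422, then 439 and 408, and Mrps5 read 568 and 541, then 501 and 522, then 476 and 491. Both are counterparts of bacterial proteins, and all their treated arrays were below control. Mrps15, named after bacterial S15, read 881 and 810, then 746 and 780, then 732 and 790, again below control throughout. The mean changes of Mrps2, Mrps5 and Mrps15 were -0.18, -0.16 and -0.15, with limma's adjusted p 0.168, 0.180 and 0.280.

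Mrps16, Mrps22 and Mrps34, genes with variants behind inherited defects of mitochondrial translation, showed no common direction. Mrps16 read 255 and 211, then 179 and 246, then 210 and 216. Mrps22 read 256 and 239, then 231 and 234, then 251 and 259. Mrps34 read 254 and 251, then 236 and 249, then 296 and 278, below control under I-BET151 and above it under JQ1. Mrps27, a pentatricopeptide-repeat protein, read 239 and 221, then 234 and 194, then 225 and 213, and its groups overlapped. The mean changes of these 4 genes lay between -0.13 and 0.06, and limma's adjusted p was 0.584 or more.

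The inhibitors themselves were compared at the single dose used for each, 100 nM JQ1 and 500 nM I-BET151, so the doses were not matched. The values are therefore given side by side. Mrps36 read 36 and 38 in control, 37 and 31 with I-BET151, and 22 and 27 with JQ1, a change of -0.13 under I-BET151 and -0.60 ± 0.14 (SE) under JQ1 (limma's adjusted p 0.682 and 0.0955). Mrps36 is a member by symbol only, its protein being assigned to another complex, and it sets the low end of the members under JQ1. Its JQ1 readings lay not far above the 25th percentiles of those arrays, 17 and 18. Mrps12 had -0.38 and -0.02, and Mrpl32 had -0.02 and -0.33. The median member had a change 0.06 higher under JQ1 than under I-BET151 in each subunit. The largest of these differences between inhibitors, -0.47 for Mrps36, had limma's adjusted p 0.720.

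Members with the widest gaps between replicates carry little information. Mrps14 read 57 and 45, then 41 and 63, then 52 and 47. Mrps33 read 138 and 204, then 179 and 148, then 180 and 162. Mrpl23 read 22 and 21, then 26 and 16, then 22 and 25. In each of the 3 genes the I-BET151 replicates differed by more than the group means did, and the sign of the mean change turned in several alternatives.

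Other mitochondrial ribosome components carry different symbols. Dap3, a GTP-binding small-subunit protein, read 252 and 260 in control, 284 and 281 with I-BET151, and 310 and 334 with JQ1. Chchd1 read 120 and 87, then 60 and 77, then 72 and 61. Gadd45gip1 read 291 and 297, then 238 and 268, then 217 and 245, and Ptcd3 overlapped between groups. Dap3 was above control on all 4 treated arrays and Chchd1 and Gadd45gip1 were below, but 0 of these 4 genes passed limma's test in any contrast (for the mean of both, Dap3 had adjusted p 0.0900).

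Of the genes that build and run the ribosome, few passed the test. Among all genes, 1.13% passed under I-BET151, 3.8% under JQ1 and 4.92% for the mean of both. Of 27 assembly factors 0 passed limma's test in any contrast, and their median mean change was 0.00, with 14 below 0. Noa1, a GTPase of small-subunit assembly, had a mean change of 0.28 and Rpusd4, a pseudouridine synthase of the large-subunit RNA, -0.28, with limma's adjusted p 0.0570 and 0.0809. Of 16 translation factors 1 fell: Mtrf1, a release factor relative, read 46 and 45, then 39 and 38, then 32 and 28. It fell by 0.60 under JQ1 and by 0.42 for the mean of both, with limma's adjusted p 0.0370 and 0.0491. Of 19 genes for mitochondrial aminoacyl-tRNA synthetases and the amidotransferase, for the mean of both Nars2 rose by 0.54 and Yars2 fell by 0.51, with limma's adjusted p 0.0441 and 0.0495. Nars2 and Yars2 charge asparagine and tyrosine tRNAs.

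Of 10 regulators of mitochondrial gene expression, 2 fell for the mean of both inhibitors. Ppargc1a, a coactivator of mitochondrial biogenesis, read 53 and 46 in control, 29 and 33 with I-BET151, and 25 and 31 with JQ1. Myc, a transcription factor with ribosome genes among its targets, read 662 and 681, then 429 and 468, then 461 and 506. Both lay below control on all treated arrays and fell by 0.75 and 0.53, with limma's adjusted p 0.0475 and 0.0310, where 3.33% of all genes were called lower. These calls, like every call in the lists of other genes, were lost when any array was left out, since no gene then passed. Nrf1, Gabpa and Yy1, whose motifs were searched in the promoters, had mean changes of 0.13, -0.11 and 0.02, with limma's adjusted p 0.452, 0.324 and 0.916. Of 12 genes that copy and transcribe mitochondrial DNA, 0 passed. Mgme1 and Top1mt had mean changes of -0.40 and -0.39, with limma's adjusted p 0.0753 and 0.0784.

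Nuclear genes for oxidative phosphorylation, the complexes that mitochondrial translation supplies, had values near those of the ribosomal family. Of 74 matched by symbol, 62 lay below 0 under I-BET151 and 50 under JQ1, with medians of -0.11 and -0.06. The match also took in a pseudogene, Atp5c1-ps (8 to 11), and dim rows such as Cox7b2 (8 to 10). The array medians of the 74 were 0.04 and -0.04 in control, -0.16 and -0.06 under I-BET151 and -0.06 on both JQ1 arrays, the same low first I-BET151 array as for the members. In the mean of both inhibitors Atp5e, an ATP synthase subunit, fell by 0.49 and Cox6b2, a cytochrome oxidase subunit, rose by 0.45, with limma's adjusted p 0.0453 and 0.0446. Of all genes, 4.92% were called in that contrast. By symbol, 64 genes matched as cytosolic ribosomal proteins, like-named relatives such as Rpl10l, Rpl3l and Rpl7l1 included. The 64 had medians of -0.04 under I-BET151 and -0.04 under JQ1. Their array medians under I-BET151 were -0.12 and 0.03. Brightness varied widely among these rows: Rpl4 read 5104 to 5420, but Rpl10 read 9 to 13 and Rps26 8 or 9. The 25th percentile of an array was 17 or 18, so the list median includes rows near the floor. Rpl19 alone among the 64 was called and rose, by 0.56 under JQ1 (limma's adjusted p 0.0305), at intensities of 25 and 26 in control, 34 and 35 with I-BET151, and 39 and 36 with JQ1. Genes encoded by mitochondrial DNA were not analysed here.

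Markers of other cell types of the bud differed between groups. Summed over 6 mesenchyme markers, intensity was 5519 and 5684 in control, 4022 and 4068 with I-BET151, and 3817 and 3692 with JQ1, and 2 and 3 of the 6 fell under I-BET151 and JQ1. For 6 endothelial markers it was 5291 and 5382, 3751 and 4019, and 3480 and 3584, with 2 and 5 called lower. For 4 neural and neural crest markers it was 1772 and 1845, 783 and 947, and 740 and 799, with 2 and 3 called lower. Of all genes, 1.13% were called in either direction under I-BET151, and 2.67% were called lower under JQ1. The 6 epithelial markers, which define pancreatic epithelium, read 4318 and 4280, 4325 and 4141, and 4010 and 4632, and 0 were called by limma in any contrast. For 4 endocrine markers the sum was 6349 and 6517, 6684 and 6360, and 5924 and 6502, and Neurod1 rose by 0.84 under JQ1 (limma's adjusted p 0.0313). For 4 mesothelium markers it was 1785 and 1703, 1764 and 1808, and 1699 and 1537. Among them Upk3b fell by 1.13 under JQ1 (limma's adjusted p 0.0184) and Wt1 rose by 0.39 for the mean of both (limma's adjusted p 0.0436). Vil1 fell among 5 stomach and intestine markers under both inhibitors, and 0 macrophage, erythroid or liver markers were called by limma. No marker read 0. Liver markers summed to 5360 and 5110, 3077 and 4594, and 3091 and 4955, low on the first array of each inhibitor. In bulk RNA, fewer cells of a type and less RNA per cell cannot be told apart, and the part of cell makeup in the members' values was not tested.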

How the data were processed

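RNA from 6 pools of buds was hybridised to 6 Affymetrix arrays, amplified before labelling per the labels' protocols. The deposited intensity values are on a linear scale, were made by the authors with RMA (no version is named; per the submitters' processing notes) and are rounded to whole numbers. The sources used here do not say how probes were summarised per gene. Of 24972 rows, 24014 had 1 symbol in the platform annotation; where 4 symbols had several rows, the brightest was kept, leaving 24010 genes. The log2 of intensity was fitted with limma 3.58.1 (lmFit and eBayes) in R 4.3.3 over all 6 arrays (3 residual and 1.76 prior degrees of freedom), and p-values were Benjamini-Hochberg adjusted over all 24010 genes. The threshold for a call was an adjusted p of 0.05. The fit was tested on simulated data. Arrays with 2 per group limit precision.

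The family, the lists and the naming rule were chosen with earlier results of these data known. Named members were those called, the 6 lowest and 6 highest mean changes, 16 of fixed role, 3 with the widest replicate gaps and 3 differing most between inhibitors, 30 in all. Called list genes and those with the 2 smallest p-values were named too. Samples were treated as unpaired. Correlations of replicate deviations over all genes were -0.016, -0.026 and -0.0399, which cannot exclude pools that shared a litter or day. Alternatives covered scaling, dim-gene filters, a pseudocount of 16, variance estimation, the groups fitted, a replicate block and each array left out.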

Additional observations from a re-analysis of the deposited data

How the results depend on the processing

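Counts of members called depended on the setting, in order I-BET151, JQ1 and mean of both. They were 1, 2 and 4 without the dimmest 25% of genes (all genes 4.43%, 9.62% and 11.4%), 5, 6 and 10 without genes below the median gene (all genes 11.8%, 19.7% and 22.3%), and 5, 10 and 10 with a trend and robust variances (all genes 7.52%, 10.9% and 12.5%). Array centring gave 0, 2 and 2 (all genes 2.22%, 5.79% and 7.24%), a pseudocount of 16 gave 0, 4 and 3 (all genes 2.75%, 6.73% and 8.18%), and fitting only the compared groups gave 0 for JQ1. Leaving out each array gave 0 to 0 in each contrast (0 of all genes), and doing so after also removing genes below the median gene gave 0 to 6, 0 to 8 and 1 to 11. The count between JQ1 and I-BET151 was 0 in every setting run. Fits with 1 array left out leave 1 array in a group, so their counts are not a result about the family. Without genes below the median gene, the members' share in these fits was below that of all genes in each contrast with control. The exception was the I-BET151 contrast without the second I-BET151 array. With replicate number as a block, 0 members passed in every contrast. The block could not change a subunit median, because both replicate numbers occur in every group. The labels do not say whether the numbers pair the samples.

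With each array centred on its median, the small-subunit median was -0.0613 under I-BET151, the JQ1 medians turned to 0.003 (large) and 0.0187 (small), and the mean-of-both medians were -0.0524 and -0.0247. Leaving out 1 array gave -0.1631 to -0.063 (small, I-BET151; -0.1632 at the low end without genes below the median gene), -0.1278 to -0.0524 (large, JQ1; -0.1462 at the low end without genes below the median gene) and -0.1373 to -0.0338 (small, mean of both). Among named members, uncalled mean changes changed sign. Centring gave Mrps14 0.0432, Mrps22 0.0353 and Mrps33 0.0489, and repeated quantile normalization gave Mrps14 0.0368 and Mrps33 0.009. The cause was not tested. Of named results under alternatives, 515 kept direction and side of the threshold, 34 passed it newly, 17 lost it and 23 changed sign. Filters on dim genes, variance settings and the replicate block cannot alter a log2 change, so direction was fixed in those fits. With 1 array left out, the ranges were -0.1501 to 0.2002 for Mrpl23, -0.1854 to 0.1556 for Mrps14, -0.2705 to 0.0028 for Mrps16, -0.1846 to 0.0159 for Mrps18a, -0.0724 to 0.0267 for Mrps22 and -0.2912 to 0.2727 for Mrps33. With 2 arrays per group, wide replicate gaps limit Mrpl23, Mrps14 and Mrps33.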
